A study of Oryza sativa Japonica Group and Oryza sativa Indica Group with 24 samples.

Results

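The salt response of rice plants labelled ir29 was set against the salt response of the japonica cultivars m103 and agami. For each probe set, the mean salt effect of both ir29-labelled sets had the mean salt effect of m103 and agami subtracted from it. All 24 of the 24 arrays of the series entered, 12 from ir29-labelled plants and 12 from japonica plants. The arrays measured RNA from the crown and growing point at panicle initiation, when the growing point turns from making leaves to making the panicle. The 8 groups of 3 arrays were the first ir29-labelled set under salt and under control conditions, the second ir29-labelled set under salt and under control conditions, m103 under salt and under control conditions, and agami under salt and under control conditions. The series text calls m103 a sensitive and agami a tolerant japonica, and names ir29 as a sensitive and ir63731 as a tolerant indica. No title carries ir63731, so the sets titled ir29 are kept apart here as first and second and neither is given a tolerance class. The titles call the replicates biological. Neither the salt dose and its duration nor the plants pooled per sample are stated in the sources used here. Since nothing else says how replicates were grown, p-values measure the spread between these samples.

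Rice is a salt-sensitive cereal, and sodium that reaches the shoot competes with potassium. Plants respond by moving sodium and potassium through HKT and HAK transporters, by removing reactive oxygen with enzymes such as catalase, and by making dehydrins and chaperones that protect proteins. The hormones abscisic acid and jasmonate carry part of the signal, and AP2-type and WRKY transcription factors act on their targets. The indica and japonica subspecies have long been separated and differ at many genes.

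Values below are scaled signals, which are array intensities after each array was brought to the same trimmed mean, and changes are in log2 units of the scaled signal plus 16, which understates the change of dim probe sets. A level of one probe set cannot be set against that of another. A probe set was called when limma's Benjamini-Hochberg adjusted p over the 34355 probe sets tested was under 0.05. The errors of log2 changes are standard errors of the limma model. Of the 24 arrays, 15 had been deposited with a trimmed mean of 500 and 9 on a lower scale. The lower-scale arrays were 4 of the first ir29-labelled set and 5 of m103, so the second ir29-labelled set and agami are the sets that lie wholly on 1 deposited scale. Replicate arrays correlated at 0.963 to 0.974 over the probe sets tested. The list of growing point markers used here includes the knotted-1-like homeobox genes HOS58 and HOS59. Their median scaled signals were 7630 (6030 to 10500) and 2960 (1410 to 4910). Whether they, or HOS66 of the same list, mark the growing point or are confined to it was not tested. Their signals therefore do not identify the tissue. FON1, a receptor kinase that limits the size of the floral meristem, ran from 889 to 1830 with a median of 1300. The other members of the 8-gene list of growing point markers had lower medians, down to 186 (55.5 to 270) for LOG, which activates cytokinins in the meristem. Transcripts of leaf genes were also present, with medians of 29100 for CAB2R and 18300 for LHCP, which encode chlorophyll-binding proteins of light harvesting. The 8 seed markers ran from a median of 33.2 for the storage glutelin GLUB-5 to 1960 for GLB and 3770 for Q-enzyme, so the list as a whole was not at background. In bulk tissue, fewer cells of a type and less RNA per cell cannot be told apart.

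The difference between the salt responses was called for 73 probe sets, which is 0.212% of those tested. The salt effect was higher in the ir29-labelled sets for 45 (0.131% of those tested) and lower for 28 (0.0815%). At an unadjusted p under 0.05 there were 3990 probe sets, or 11.6%, with 1995 in each direction. The count of 73 was sensitive to single arrays. It was 44 without control array 1 of m103 or salt array 2 of the first ir29-labelled set, 46 to 48 without control array 3, salt array 2 or salt array 3 of m103, salt array 2 of agami or salt array 2 of the second ir29-labelled set, and 146 without salt array 1 of m103. The 45 had differences of 0.51 to 3.36 with a median of 1.48, and the 28 had sizes of 0.44 to 3.17 with a median of 0.92. For 64 of the 73, both ir29-labelled salt effects lay on the same side of both japonica salt effects, an arrangement found in 30.7% of all probe sets tested. For the other 9 at least 1 pair of sets ran the other way. The values that made the calls also favour the same-side arrangement, so its share describes the called probe sets only. The annotation gave 1 gene for 51 of the 73 and no gene for 22. Only 11 probe sets, of 9 genes, carried an informative name.

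**Figure D1:**
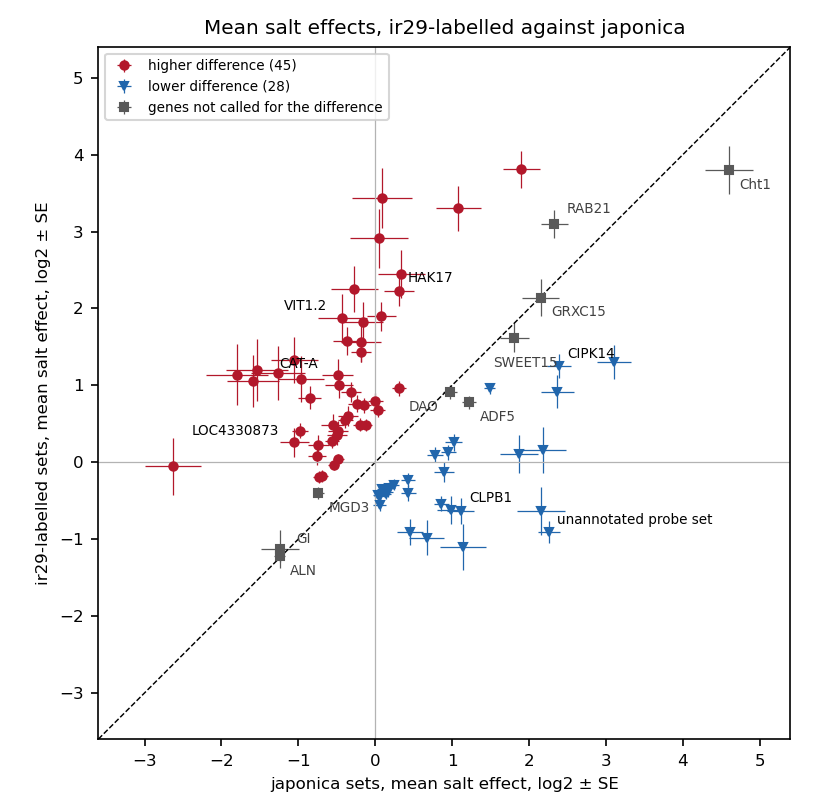
Mean salt effect of the ir29-labelled sets (vertical axis) against that of the japonica sets (horizontal axis), in log2 units with standard errors, for the 45 probe sets called higher (circles), the 28 called lower (triangles) and 9 salt-responsive genes that were not called (squares). The dashed line marks equal effects, and SWEET15, GRXC15, GI and ALN lie near it, while HAK17 and VIT1.2 stand above it and CLPB1 and CIPK14 below it.

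The mean salt effect itself was called for 3444 probe sets in the ir29-labelled sets (10%), of which 1751 rose (5.1%) and 1693 fell (4.93%). It was called for 3292 in the japonica sets (9.58%), of which 1677 rose (4.88%) and 1615 fell (4.7%). These means share no arrays. A total of 1270 probe sets were called in both, and 1254 of them moved in the same direction, which is 36.4% of the ir29-labelled calls and 38.1% of the japonica calls. The remaining 16 moved in opposite directions, 7 higher and 9 lower in the ir29-labelled sets, and 14 of these were called for the difference. Over all 34355 probe sets, the salt effects of the ir29-labelled and japonica sets correlated with a Pearson r of 0.338 and a Spearman rho of 0.313. That correlation is a description across probe sets, which are not independent replicates.

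The 45 higher differences came about in several ways. In 21 of them the ir29-labelled mean rose under salt while the japonica mean was not called. In 14 the japonica mean fell while the ir29-labelled mean was not called, in 7 the ir29-labelled mean rose and the japonica mean fell, and in 3 both rose. Set by set, salt raised 32 of the 45 in the first ir29-labelled set, where 3.38% of all probe sets were raised, and 16 in the second, where 4.41% were. Salt lowered 22 of the 45 in m103, against 4.67% of all probe sets, and 2 in agami, against 0.413%. Of the 28 lower differences, 9 combined a fall in the ir29-labelled sets with no call in the japonica sets, 8 a rise in the japonica sets with no call in the ir29-labelled sets, 7 a fall with a rise, and 4 a smaller rise with a larger one. Salt raised 15 of the 28 in m103 (4.17% of all probe sets) and 9 in agami (0.521%), and lowered 8 in the first ir29-labelled set (2.42%) and 11 in the second (4.42%). These counts use the arrays that made the calls and describe them only.

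The potassium transporter HAK17, of the HAK/KUP/KT family, had the smallest adjusted p among the named genes with a higher difference. In the first ir29-labelled set its scaled signals were 1420, 2100 and 1710 under salt, against 161, 89.8 and 213 under control conditions. In the second ir29-labelled set they were 253, 490 and 272 under salt, against 151, 173 and 125. In m103 they were 328, 719 and 366 under salt, against 495, 376 and 386, and in agami 368, 279 and 392 under salt, against 215, 231 and 252. Every salt array thus lay above every control array in both ir29-labelled sets and in agami, while the groups overlapped in m103. Over all probe sets tested, salt arrays lay wholly above control arrays in 12.3% in the first ir29-labelled set, 11.4% in the second, 14.1% in m103 and 10.1% in agami, and wholly below in 11% in the first, 11.7% in the second, 13.4% in m103 and 9.12% in agami. The salt effect was 3.42 ± 0.28 in the first ir29-labelled set, 1.05 ± 0.28 in the second, 0.09 ± 0.28 in m103 and 0.53 ± 0.28 in agami. The difference was 1.92 ± 0.28 (limma adjusted p = 0.0023, 95% interval 1.34 to 2.51), and another probe set of HAK17 gave 1.75 (adjusted p = 0.041). The difference rested on the first ir29-labelled set. It was 0.74 (limma adjusted p = 0.34) without that set, 0.51 between the second ir29-labelled set and agami, and the second set differed from the first by -2.37. Unstressed, the ir29-labelled minus japonica level of HAK17 was -1.0.

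HAK17 was the only one of 24 tested potassium and sodium transport genes that was called. The median difference of the 24 was -0.05, against -0.007 over all probe sets tested. In this and the other lists each gene counts by its probe set of highest mean signal, while all probe sets include many dim ones. Of these genes, 8 had an unadjusted p under 0.05 (33.3%, against 11.6% of all probe sets), all 8 with a higher salt effect in the ir29-labelled sets, and none but HAK17 passed adjustment. HAK22 had a difference of 1.43 ± 0.46 (limma adjusted p = 0.20) and HAK13 one of 1.17 ± 0.46 (adjusted p = 0.30). HKT1.5, a sodium transporter known for keeping sodium out of rice shoots, had a difference of 0.47 ± 0.21 (adjusted p = 0.37, 95% interval 0.05 to 0.90). Its mean salt effect was 0.16 in the ir29-labelled sets and -0.31 in the japonica sets, and neither mean was called.

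The catalase gene CAT-A, whose enzyme breaks down hydrogen peroxide, rose under salt in the ir29-labelled mean and was not called in the japonica mean. Under salt it had scaled signals of 1610, 1310 and 1710 in the first ir29-labelled set, against 725, 695 and 292 under control conditions. In the second ir29-labelled set it had 846, 1490 and 1360 under salt, against 493, 868 and 763. In agami it had 248, 316 and 332 under salt, against 702, 424 and 387, and in m103 2870, 2710 and 2300 under salt, against 2790, 3010 and 3860. The salt arrays lay wholly above the control arrays in the first ir29-labelled set and wholly below them in agami, and overlapped them in the second set and in m103. The difference was 1.63 ± 0.28 (limma adjusted p = 0.010, 95% interval 1.05 to 2.21), with a mean salt effect of 1.14 ± 0.20 in the ir29-labelled sets (adjusted p = 0.00064) and -0.49 ± 0.20 in the japonica sets (adjusted p = 0.14). Without the first ir29-labelled set it was 1.27 (adjusted p = 0.084), and between the second set and agami it was 1.47 (adjusted p = 0.20). CAT-A was the only call among 26 antioxidant genes, whose median difference was -0.03 and of which 4 had an unadjusted p under 0.05.

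**Figure D2:**
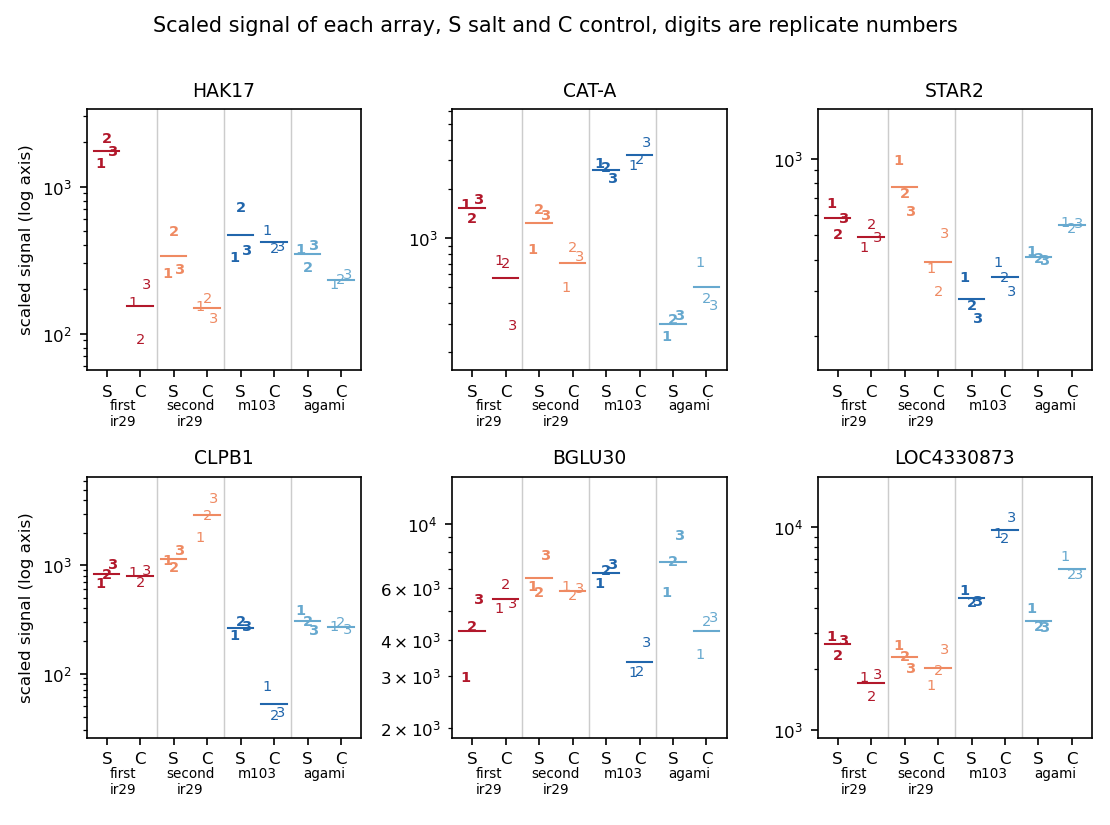
Scaled signal of every array on a log axis for 6 genes called for the difference, with salt (S) left of control (C) in each set, digits giving replicate numbers and lines the group means. HAK17 and CAT-A show salt above control in the first ir29-labelled set, and LOC4330873 shows salt below control in m103 and agami.

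VIT1.2, a vacuolar iron transporter, had scaled signals of 4730, 5290 and 3910 under salt in the first ir29-labelled set, against 632, 437 and 678 under control conditions. In m103 it had 339, 362 and 151 under salt, against 740, 748 and 819. These groups do not overlap and run in opposite directions. In the second ir29-labelled set the values were 4550, 8250 and 6840 under salt, against 1180, 5030 and 8900, and in agami 977, 615 and 922 under salt, against 760, 545 and 366. Both of these sets overlapped, and the control arrays of the second set spread the most. The difference was 2.30 ± 0.45 (limma adjusted p = 0.029), with salt effects of 2.98 and 0.76 in the ir29-labelled sets, -1.48 in m103 and 0.61 in agami. It was 0.15 between the second ir29-labelled set and agami, 1.26 (adjusted p = 0.43) without m103 and 1.19 (adjusted p = 0.33) without the first ir29-labelled set. Leaving out 1 array ended the call in 8 of 24 cases (adjusted p = 0.052 to 0.069, difference 2.11 to 2.31): salt array 2 or control array 2 of the first ir29-labelled set, salt array 2 of the second, control array 1 or 3 or salt array 3 of m103, and control array 1 or salt array 2 of agami. VIT1.2 was the only call among 41 iron and zinc genes, with a median of 0.02.

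STAR2 encodes the membrane part of an ABC transporter that works with STAR1 in the aluminium tolerance of rice. Its scaled signals in the second ir29-labelled set were 980, 729 and 617 under salt, against 366, 299 and 505 under control conditions. In the first ir29-labelled set they were 663, 502 and 580 under salt, against 443, 550 and 487. In agami they were 427, 403 and 395 under salt, against 557, 526 and 555, and in m103 339, 263 and 234 under salt, against 389, 339 and 297. Salt arrays were wholly higher in the second ir29-labelled set and wholly lower in agami, and overlapped control arrays in the other sets. The difference was 0.94 ± 0.18 (limma adjusted p = 0.027), and unstressed levels differed by 0.01. Between the second ir29-labelled set and agami it was 1.37 (adjusted p = 0.076), and without the second set it was 0.57 (adjusted p = 0.25). The call was lost without control array 1, salt array 2 or salt array 3 of m103, or salt array 2 or 3 of agami (adjusted p = 0.052 to 0.062, difference 0.89 to 0.94).

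EXPB11 and NEK6 also rose in the first ir29-labelled set. EXPB11, a beta-expansin of the family that loosens cell walls, had 5890, 6460 and 5890 under salt there, against 3160, 2950 and 2400 under control conditions, and groups that overlapped in the other sets. Its difference was 0.66 ± 0.14 (limma adjusted p = 0.047). Without the first set it was 0.23 (adjusted p = 0.58). NEK6, a NIMA-related protein kinase, had 3090, 3800 and 3140 under salt in the first ir29-labelled set, against 2200, 2240 and 1630, while in m103 it had 2350, 1970 and 1390 under salt, against 4460, 3540 and 3630. The groups were apart in both of these sets and overlapped in the second ir29-labelled set and in agami. The NEK6 difference was 0.97 ± 0.19 (limma adjusted p = 0.035), and 0.16 between the second ir29-labelled set and agami. Both calls were near the threshold. That of EXPB11 was kept only without control array 1 of the first ir29-labelled set, control or salt array 1 of the second, control array 2 or salt array 1 of m103, or salt array 1 of agami, and was lost without any of the other 18 arrays (adjusted p = 0.063 to 0.094, difference 0.58 to 0.67). That of NEK6 was lost in 10 of 24 cases (adjusted p = 0.056 to 0.081, difference 0.86 to 0.99), which were control array 3 or salt array 2 of either ir29-labelled set, control array 1 or 3 or salt array 2 or 3 of m103, and salt array 1 or 2 of agami. Of 24 expansin genes, EXPB11 was the only call, and the median difference was 0.10.

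The ClpB-type chaperone gene CLPB1, whose protein family pulls apart protein aggregates after heat, had the lowest difference among named genes. In m103 its scaled signals were 220, 302 and 270 under salt, against 74.3, 40.6 and 42.8 under control conditions. In the second ir29-labelled set they were 1110, 944 and 1350 under salt, against 1810, 2850 and 4130. CLPB1 therefore rose in m103 and fell in the second ir29-labelled set, with no overlap in either. In the first ir29-labelled set the values were 674, 822 and 999 under salt, against 845, 682 and 886, and in agami 379, 299 and 246 under salt, against 267, 291 and 255. Both of these overlapped. The difference was -1.73 ± 0.24 (limma adjusted p = 0.0011, 95% interval -2.23 to -1.24). It was -0.78 (adjusted p = 0.32) without m103, -1.07 (adjusted p = 0.074) without the second ir29-labelled set and -1.45 (adjusted p = 0.13) between the second set and agami. Unstressed CLPB1 was higher in the ir29-labelled sets by 3.44.

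Heat shock protein genes numbered 22 among those tested, and CLPB1 was their only call. Their median difference was -0.33, against -0.007 over all probe sets. At an unadjusted p under 0.05 stood 10 of the 22 (45.5%, against 11.6%), 7 lower and 3 higher. Taken by themselves, the ir29-labelled mean effects of these genes had 5 falls and no rise, and the japonica means 3 rises and 1 fall. HSP17.4, a small heat shock protein, had 63.6, 36.6 and 67.3 under salt in the second ir29-labelled set, against 95.9, 466 and 741, and 488, 731 and 956 under salt in m103, against 414, 412 and 303. Its difference was -1.49 ± 0.43 (limma adjusted p = 0.15). HSP24.1 had salt effects of -0.25 and -2.41 in the ir29-labelled sets, 1.81 in m103 and -1.96 in agami, with a difference of -1.25 ± 0.39 (adjusted p = 0.19, 95% interval -2.06 to -0.44). The set that stands apart for HSP24.1 is thus m103, while agami moved with the second ir29-labelled set. HSP18.8 went the other way, with a difference of 0.91 ± 0.25 (adjusted p = 0.13). Of 19 heat shock factor genes, which switch on the chaperones, none was called, 5 had an unadjusted p under 0.05 with lower effects, and the median was -0.18.

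BGLU30, of the beta-glucosidase family, rose in both japonica cultivars. In m103 its scaled signals were 6190, 6880 and 7220 under salt, against 3070, 3090 and 3890, and in agami 5770, 7380 and 9040 under salt, against 3540, 4610 and 4750. In the first ir29-labelled set they were 2950, 4430 and 5490 under salt, against 5090, 6150 and 5310, and in the second 6060, 5800 and 7730 under salt, against 6050, 5650 and 5970. No salt array of either japonica cultivar overlapped its control arrays, and both ir29-labelled sets overlapped. The mean salt effect was -0.13 ± 0.13 in the ir29-labelled sets (limma adjusted p = 0.60) and 0.89 ± 0.13 in the japonica sets (adjusted p = 7.1e-05). The difference was -1.02 ± 0.18 (adjusted p = 0.011), and another probe set of BGLU30 gave -0.68 (adjusted p = 0.045). On that probe set, salt arrays lay wholly above control arrays in the second ir29-labelled set too, with a salt effect of 0.51 ± 0.14 (limma adjusted p = 0.028), against 0.85 in m103, 0.71 in agami and -0.32 in the first ir29-labelled set, and the second ir29-labelled set differed from the first by 0.83 (adjusted p = 0.025). Between the second ir29-labelled set and agami, that probe set gave -0.19 (limma adjusted p = 0.81). The probe set with the difference of -1.02 gave -0.63 (adjusted p = 0.39) between the same sets. Its difference was -0.90 (adjusted p = 0.091) without m103 and -0.75 (adjusted p = 0.10) without the first ir29-labelled set. BGLU30 was the only call among 25 beta-glucosidase genes, whose median was -0.01.

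CIPK14, a kinase that calcium sensors of the CBL family switch on, rose with salt in the first ir29-labelled set and both japonica cultivars, by unequal amounts. Its scaled signals in the first ir29-labelled set were 2400, 2260 and 2500 under salt, against 498, 538 and 486, and in the second 480, 440 and 633 under salt, against 386, 410 and 437. In m103 they were 5150, 3350 and 2990 under salt, against 248, 383 and 214, and in agami 326, 522 and 440 under salt, against 137, 257 and 192. Salt arrays lay above control arrays in all 4 sets. The effects were 2.20, 0.31, 3.69 and 1.09 in that order of sets, each with a standard error of 0.22, and that of the second ir29-labelled set was not called (limma adjusted p = 0.47). The difference was -1.14 ± 0.22 (adjusted p = 0.029), but the first ir29-labelled set stood above agami, and without m103 the difference was 0.16. Without the second ir29-labelled set it was -0.19 (adjusted p = 0.83), and between the second set and agami it was -0.78 (adjusted p = 0.39). Leaving out control array 2 or salt array 2 of the first ir29-labelled set, salt array 2 of the second, control array 1 or 3 of m103, or salt array 2 or 3 of agami also ended the call (adjusted p = 0.052 to 0.067, difference -1.12 to -1.06). Among 73 calcium signalling genes CIPK14 was the only call, and the median was 0.01.

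**Figure D3:**
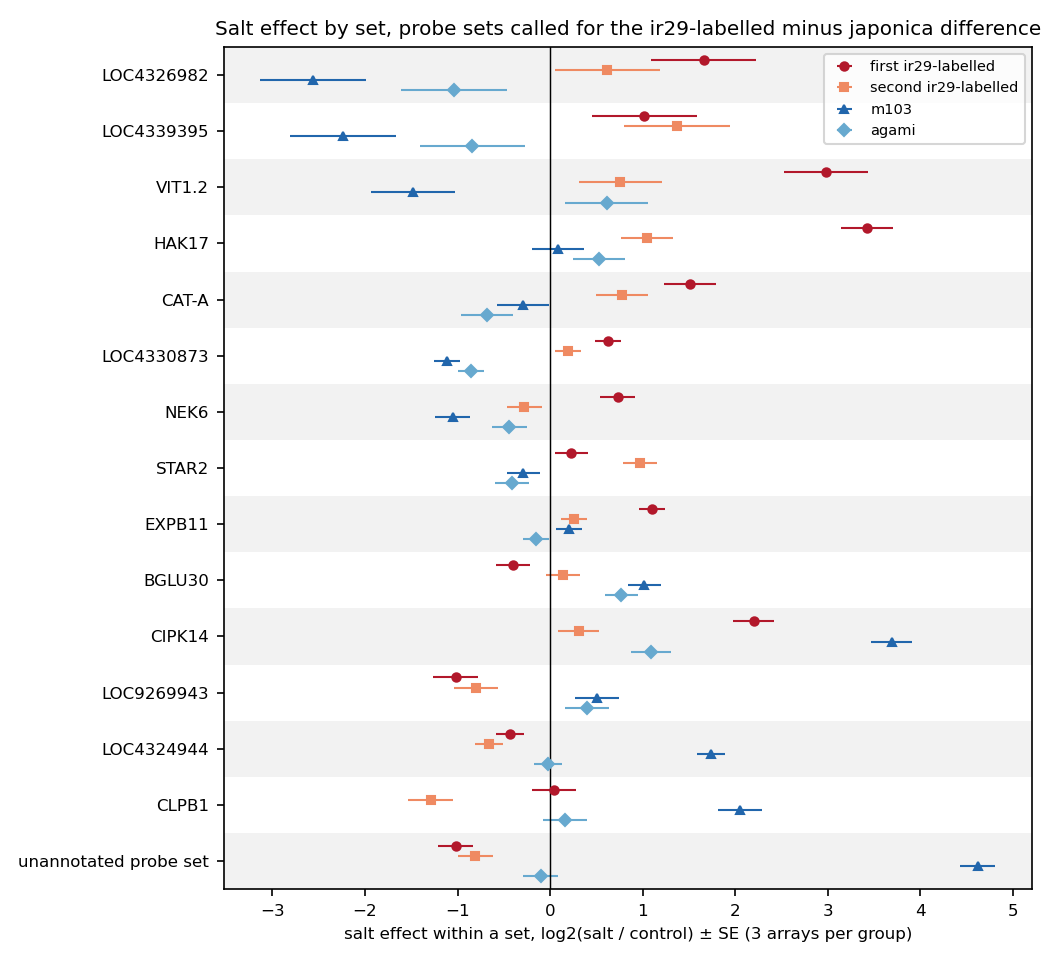
Salt effect in each of the 4 sets, in log2 units with standard errors (3 arrays per group), for 15 probe sets called for the difference, ordered from the highest difference at the top to the lowest. HAK17 stands out through the first ir29-labelled set at 3.42, and the probe set without a gene (lowest line) through m103 at 4.62.

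Most called probe sets had a gene without an informative name. LOC4330873 had the smallest p among the higher differences and was chosen after its values were seen. Its scaled signals were 2870, 2320 and 2740 under salt in the first ir29-labelled set, against 1800, 1460 and 1870, and 2600, 2300 and 2000 under salt in the second, against 1640, 1960 and 2470. They were 4870, 4250 and 4300 under salt in m103, against 9310, 8740 and 11100, and 3960, 3230 and 3180 under salt in agami, against 7120, 5810 and 5830. Both japonica cultivars lay wholly lower under salt, the first ir29-labelled set wholly higher, and the second set overlapped. The difference was 1.39 ± 0.14 (limma adjusted p = 2.2e-05), and each named set could be left out without ending the call. Between the second ir29-labelled set and agami alone it was 1.05 (adjusted p = 0.080).

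LOC4326982 and LOC4339395 had the largest higher differences of the genes in which all pairs of sets ran one way. LOC4326982 had 377, 284 and 169 under salt in the first ir29-labelled set, against 124, 124 and 19.6, and 11.1, 46.7 and 11.5 under salt in m103, against 206, 120 and 299. Its difference was 2.94 ± 0.57 (limma adjusted p = 0.026) and 1.66 (adjusted p = 0.50) between the second ir29-labelled set and agami. LOC4339395 had 31.7, 17.1 and 58.8 under salt in the second ir29-labelled set, against 1.7, 2.4 and 4.8, and 179, 44.8 and 13.8 under salt in m103, against 359, 272 and 329. Its difference was 2.74 ± 0.57 (limma adjusted p = 0.040) and 2.22 (adjusted p = 0.33) between the second ir29-labelled set and agami. In each of these pairs of groups the salt and control arrays did not overlap. In agami they overlapped for both genes. LOC4326982 had 5.1, 10.6 and 2.7 under salt in agami, against 125, 6.8 and 12.5 under control conditions. LOC4339395 had 33.4, 18.9 and 77.1, against 196, 48.2 and 52.1. Control array 1 was the highest agami array for each gene. Both genes were dim in several groups. The call of LOC4326982 was lost without salt array 2 of the first ir29-labelled set, control array 1 or 3 or salt array 3 of m103, or salt array 3 of agami (adjusted p = 0.051 to 0.063, difference 2.79 to 2.92). That of LOC4339395 was lost without any of 15 arrays (adjusted p = 0.051 to 0.088, difference 2.43 to 2.79) and was kept without control array 1 or salt array 1 or 3 of the first ir29-labelled set, salt array 1 or 2 of the second, salt array 1 of m103, or control array 2 or 3 or salt array 3 of agami.

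On the lower side, LOC4324944 had 6080, 6950 and 7480 under salt in m103, against 2240, 2260 and 1670 under control conditions. In the first ir29-labelled set it had 1380, 1340 and 1900 under salt, against 1980, 2100 and 2080, and in the second 1500, 1490 and 1500 under salt, against 2220, 2480 and 2440. Salt arrays were wholly higher in m103 and wholly lower in both ir29-labelled sets, and agami, at 1100, 1610 and 1510 under salt against 1200, 1560 and 1500, overlapped. The difference was -1.40 ± 0.15 (limma adjusted p = 2.2e-05), and -0.52 (adjusted p = 0.27) without m103. LOC9269943 fell in both ir29-labelled sets, with 20.1, 16.1 and 9.88 under salt in the first, against 37, 48.8 and 56.1, and 9.3, 12 and 24.3 in the second, against 24.4, 46 and 43.6. Its values were 454, 421 and 436 under salt in m103, against 298, 322 and 289, and 342, 413 and 466 in agami, against 307, 359 and 250, and neither japonica effect was called. Its difference was -1.36 ± 0.24 (limma adjusted p = 0.012), and -1.31 (adjusted p = 0.064) without m103. LOC9269943 was dim in both ir29-labelled sets, at 9.3 to 56.1, which is close to the pseudocount of 16. Its unstressed ir29-labelled minus japonica level was -2.46. Whether its fall in the ir29-labelled sets stands above background was not tested. The lowest difference of all belonged to a probe set with no gene in the annotation, chosen after its values were seen. It had 5760, 8090 and 7830 under salt in m103, against 271, 323 and 237, and between 109 and 226 in every other salt array, against 182 to 404 in every other control array. Its difference was -3.17 ± 0.19 (limma adjusted p = 1.2e-09), and -0.81 (adjusted p = 0.17) without m103.

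The 4 comparisons of an ir29-labelled set with a japonica set, which share arrays with each other, gave very unequal counts. The first ir29-labelled set minus m103 had 245 calls (0.713% of probe sets), with 170 higher (0.495%) and 75 lower (0.218%), and minus agami 563 (1.64%), with 340 higher (0.99%) and 223 lower (0.649%). The second ir29-labelled set minus m103 had 893 calls (2.60%), with 409 higher (1.19%) and 484 lower (1.41%), and minus agami 1 (0.00291%). That probe set has no informative name here and had salt effects of 0.00 and 0.25 in the ir29-labelled sets, 0.41 in m103 and 1.5 in agami. At an unadjusted p under 0.05, limma gave 3447 probe sets for the second ir29-labelled set minus agami. Within a subspecies label, the second minus the first ir29-labelled set had 1205 calls (3.51%), with 607 higher (1.77%) and 598 lower (1.74%), and agami minus m103 349 (1.02%), with 181 higher (0.527%) and 168 lower (0.489%). These counts were not stable. Leaving out 1 array gave 539 to 1836 calls for the second minus the first ir29-labelled set and 420 to 1111 for the second minus m103. Of the 73 probe sets called for the mean difference, 30 were also called for at least 1 of these comparisons within a label. The salt effect was called for 1993 probe sets in the first ir29-labelled set (5.80%), 3034 in the second (8.83%), 3039 in m103 (8.85%) and 321 in agami (0.934%).

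**Figure D4:**
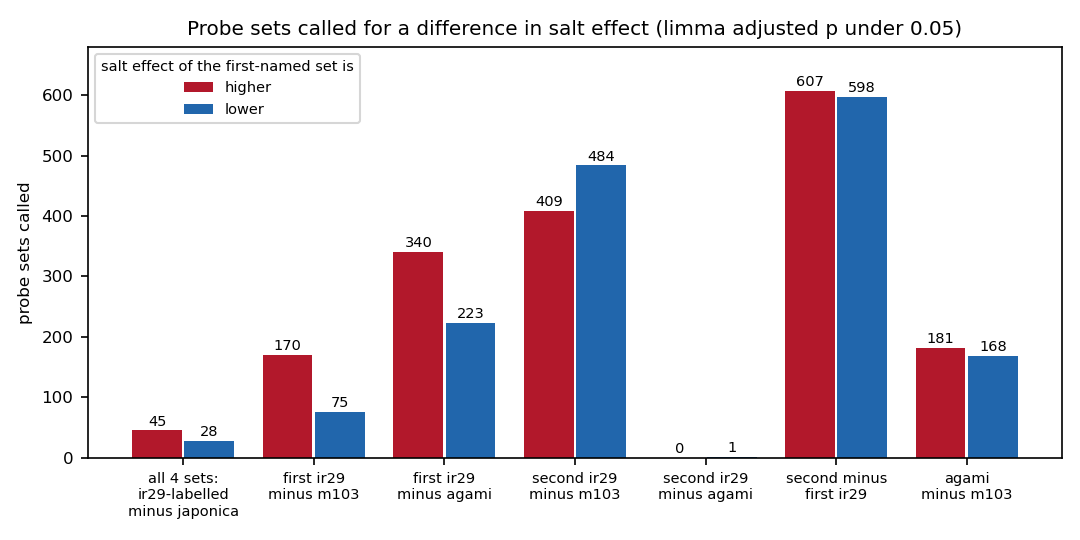
Number of probe sets called at a limma adjusted p under 0.05 for the difference in salt effect over all 4 sets and for each pair of sets, split into higher (left bar) and lower (right bar) in the set named at the top of the label. The second ir29-labelled set minus agami has 1 call, and the second minus the first ir29-labelled set 607 and 598.

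Unstressed levels were called far more often than the difference between salt effects. The control arrays of the ir29-labelled sets minus those of the japonica sets gave 10997 calls (32.0%). This contrast has smaller standard errors, as for HAK17 with 0.20 against 0.28, so the counts are not at like precision. Probe sequences can bind transcripts of different cultivars unequally, and a salt effect within a set is a ratio on the same probes. Among the 45 higher differences the median unstressed difference was -0.42 and 29 lay below 0. Among the 28 lower differences the median was 0.35 and 6 lay below 0. The control arrays enter both quantities, so these signs are not independent of the salt effect.

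Jasmonate genes lay mostly on one side without passing the test. Of 28 tested, none was called by limma, 22 had a difference above 0, and 12 had an unadjusted p under 0.05 (42.9%, against 11.6% of all probe sets), all higher in the ir29-labelled sets. The median was 0.37. Differences within the list ran from -0.78 to 3.47. The genes shown here encode JAZ proteins, repressors that jasmonate itself induces. JAZ9 had 298, 906 and 387 under salt in the first ir29-labelled set, against 145, 19.6 and 34, and 346, 60.4 and 94.5 in the second, against 137, 6.1 and 62.2. In agami it had 137, 43.8 and 57.9 under salt, against 1970, 70.1 and 73.9, and in m103 90.8, 163 and 32.2 under salt, against 1130, 64.2 and 81.9. In each japonica cultivar control array 1 stood far above the other two. The JAZ9 difference was 3.33 ± 1.0 (limma adjusted p = 0.18, 95% interval 1.18 to 5.49), and 1.97 ± 0.72 (adjusted p = 0.37) without both of these control arrays. JAZ10 had control values of 5160, 210 and 223 in agami and 2310, 128 and 350 in m103, with a difference of 3.26 ± 1.0 (adjusted p = 0.19) and 1.96 ± 0.74 (adjusted p = 0.39) without the same arrays. JAZ11 had a difference of 2.23 ± 0.68 (adjusted p = 0.17), and 1.55 ± 0.55 (adjusted p = 0.34) without them. Without these 2 arrays, 7 of the 28 genes had an unadjusted p under 0.05 (25%, against 9.26% of all probe sets in the same fit) and the median was 0.27.

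The same control arrays stood apart for DREB1B, an AP2-type factor of the cold and drought response. Its control values were 1440, 157 and 234 in agami and 1240, 36.5 and 57.3 in m103. The difference of 1.83 ± 0.93 (limma adjusted p = 0.46) became 0.64 ± 0.65 (adjusted p = 0.83) without them. Of 10 DREB and ERF genes none was called, 3 had an unadjusted p under 0.05, all higher in the ir29-labelled sets, and the median was 0.38. Differences in that list ran from -0.18 to 2.02. The nearest to the threshold was AP2-5, with salt effects of 0.76 and 0.88 in the ir29-labelled sets, 0.01 in m103 and 0.25 in agami and a difference of 0.69 ± 0.15 (adjusted p = 0.052). Of 5 WRKY factors, with differences from -0.12 to 2.4, none was called. WRKY76, known as a repressor of defence in rice, had a difference of 1.70 ± 0.44 (limma adjusted p = 0.11).

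**Figure D5:**
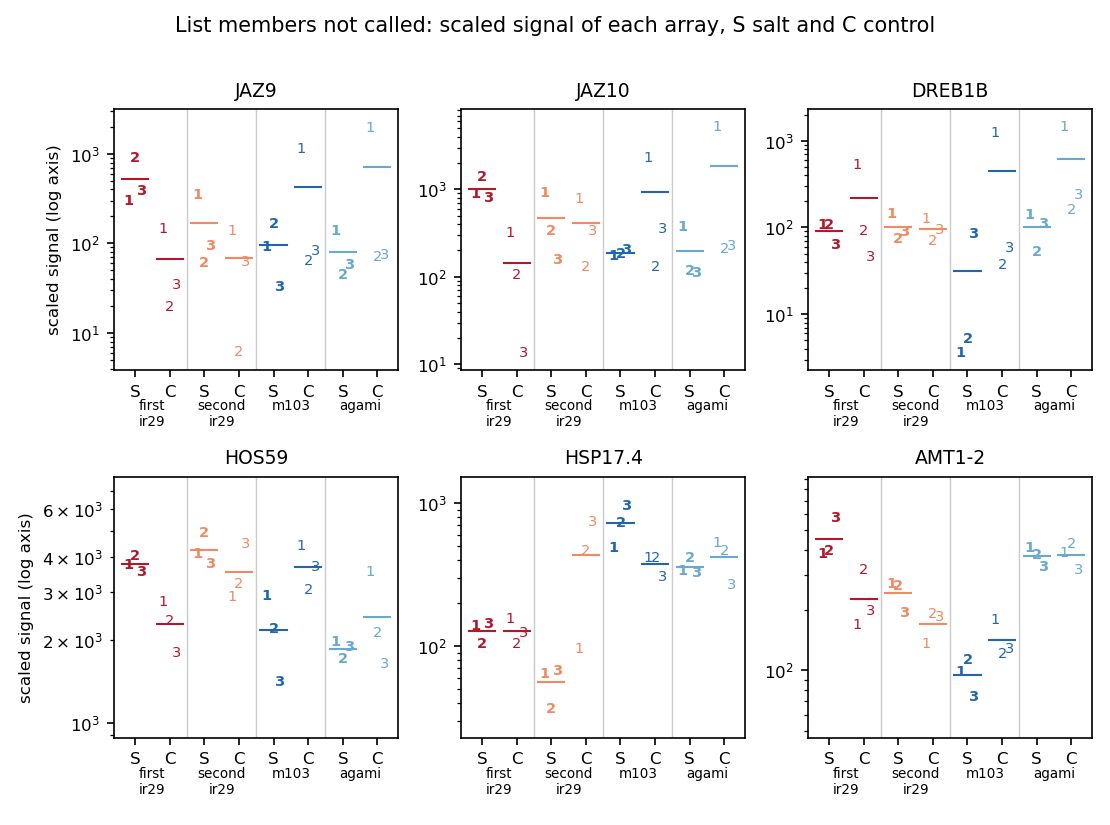
Scaled signal of every array on a log axis for 6 list members that were not called, with salt (S) left of control (C) in each set, digits giving replicate numbers and lines the group means. Control array 1 of m103 and of agami stands above the other control arrays of its cultivar for JAZ9, JAZ10 and DREB1B.

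Genes of nitrogen and purine use, 23 in all, had no limma call. At an unadjusted p under 0.05 stood 9 of them (39.1%), 8 higher and 1 lower in the ir29-labelled sets, and the median was 0.17. The ammonium transporter gene AMT1-2 had 379, 393 and 577 under salt in the first ir29-labelled set, against 169, 318 and 197, and 98.5, 113 and 73.7 under salt in m103, against 178, 121 and 128. These groups were apart in opposite directions. Its difference was 0.97 ± 0.23 (adjusted p = 0.083). AMT2-1 had a difference of 1.59 ± 0.46 (adjusted p = 0.14), and AMT2-2 one of -1.21 ± 0.42 (adjusted p = 0.24).

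Genes listed as growing point markers were looked at beside these results. Of 8 tested none was called by limma, 3 had an unadjusted p under 0.05, all higher in the ir29-labelled sets, and the median was 0.23. HOS59 had 3740, 4030 and 3530 under salt in the first ir29-labelled set, against 2750, 2340 and 1800, and 2900, 2200 and 1410 under salt in m103, against 4390, 3030 and 3680. Its difference was 1.07 ± 0.24 (adjusted p = 0.064), and that of HOS66 1.25 ± 0.37 (adjusted p = 0.16). The summed signal of the 8 listed genes was 16190 to 17660 under salt in the first ir29-labelled set, against 14350 to 14860. It was 11720 to 13990 under salt in m103, against 15510 to 16680. In the second ir29-labelled set it was 16870 to 20580 under salt, against 13820 to 17530, and in agami 12530 to 12840, against 11830 to 14860. The sums were thus apart in the first ir29-labelled set and in m103, in opposite directions. HOS58 and HOS59 had the highest medians of the 8, so the sums weigh most on them. Whether these genes mark the growing point was not tested, and the sums do not measure the amount of growing point tissue. Of 22 Casparian strip and related genes, a list meant to mark root tissue, none was called, 5 had an unadjusted p under 0.05, all higher, and the median was 0.30. Their sum was 29540 to 30760 under salt in the first ir29-labelled set, against 28370 to 33360, and 22280 to 25680 under salt in m103, against 27920 to 33900. CASP1, the defining member, ran from 3.8 to 89 over all arrays. The part of tissue makeup in the differences was not tested.

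The ratio of the 3' to 5' actin control probe sets, a measure of RNA quality, was 6.77 to 10.1 in the salt arrays of the second ir29-labelled set, against 4.11 to 7.37 in its control arrays, and 4.18 to 6.72 in the other 18 arrays. The 2 highest ratios were those of salt arrays 2 and 3 of the second ir29-labelled set. Without them 1 salt array of that set is left, so no conclusion is drawn from the calls of that fit. The part of RNA quality in the difference was not tested.

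Several genes with a strong salt response were not called for the difference. RAB21, a dehydrin, had 2050, 2330 and 3170 under salt in the first ir29-labelled set, against 231, 143 and 120, and 1130, 1650 and 1320 in the second, against 149, 327 and 313. It had 956, 655 and 562 under salt in m103, against 90.3, 112 and 102, and 490, 483 and 469 in agami, against 101, 104 and 112. No salt array overlapped a control array of its set. The mean salt effect was 3.10 ± 0.18 in the ir29-labelled sets and 2.33 ± 0.18 in the japonica sets, and the difference was 0.77 ± 0.25 (limma adjusted p = 0.20, 95% interval 0.25 to 1.29). ALN, the allantoinase of purine breakdown, fell by 1.22 in the ir29-labelled sets and by 1.24 in the japonica sets, and its difference of 0.02 ± 0.10 had a 95% interval of -0.20 to 0.23. SWEET15, a sugar transporter, rose by 1.62 in the ir29-labelled sets and by 1.81 in the japonica sets, with a difference of -0.20 ± 0.27 (95% interval -0.75 to 0.36). Cht1, a chitinase, rose by 3.80 in the ir29-labelled sets and by 4.60 in the japonica sets, with a difference of -0.80 ± 0.44 (adjusted p = 0.51, 95% interval -1.72 to 0.11). The glutaredoxin GRXC15 had a difference of -0.01 ± 0.34, with an interval of -0.72 to 0.69 that leaves room for a sizeable difference either way. The actin-binding protein gene ADF5 had a difference of -0.44 ± 0.13 (limma adjusted p = 0.14). salT, known as a salt-induced lectin of rice, had salt effects of 3.13 and -0.13 in the ir29-labelled sets, 1.77 in m103 and -0.53 in agami, and an interval for its difference of -0.47 to 2.23. Of these effects, that of the first ir29-labelled set was called (limma adjusted p = 0.0043) and that of m103 was not (adjusted p = 0.10). The m103 salt arrays had 31900, 3750 and 905, against 1990, 1070 and 1260, so that 1 array lay far above and another below all control arrays.

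Over the 47 gene lists, 1069 genes were tested and 7 were called (0.655%, against 0.212% of all probe sets tested). The lists hold 1 probe set per gene, that of highest mean signal. Of all probe sets tested, 32.7% had a mean scaled signal under 100, so the shares are not over like sets. The 7 called genes were HAK17, CAT-A, EXPB11 and VIT1.2 with higher and CLPB1, CIPK14 and BGLU30 with lower effects, each in a different list. The 7 LEA and dehydrin genes had a median difference of 0.00 and the 21 chitinase and defence genes 0.01, with no limma call. The 22 photosynthesis genes, which mark leaf tissue, had a median of 0.05 and none at an unadjusted p under 0.05. The 22 ribosomal genes had a median of -0.07 and the 32 DNA replication genes -0.13, also with no call.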

How the data were processed

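RNA of 24 rice crown and growing point samples was measured on Affymetrix rice arrays. The deposited table holds 1 intensity on a linear scale for each probe set and array, and the submitters' processing notes name GCOS 1.2. How the signal was summarised is not stated in the sources used here. The mean with 2% of probe sets trimmed at each end was 500 in 15 arrays and 58.8 to 115.7 in 9, so each array was scaled to 500 and taken as log2(signal + 16). The 123 Affymetrix control probe sets were left out, and the probe sets above the 40th percentile of the mean (a scaled signal of about 27.9) were tested. With 3 arrays per group, their number limits the precision.

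One mean for each of 8 groups was fitted with limma 3.58.1 (R 4.3.3) with an intensity trend, and contrasts were tested two-sided with Benjamini-Hochberg adjustment over all probe sets tested. The code was tested on simulated data. Groups came from the titles. The labels' description calls all samples unstressed. Gene names came from the platform's annotation and the RefSeq gene table of rice. No coordinates or sequences are given.

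The members, the gene lists and the tests were chosen with earlier results of these data known. Named genes were the called ones with an informative symbol in which all 4 pairs of sets ran one way (at most 15 each way), up to 3 called members of each list, and up to 2 unnamed genes each way; exceptions are marked as chosen after their values were seen. The salt-responsive genes, the list members not called that are named and their values were likewise chosen with values known. Alternatives changed the scaling, the pseudocount, the filter, the trend, array weights, the deposited scale or replicate number as a block, and the sets or arrays used. Figures were drawn with matplotlib 3.10.9.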

Additional observations from a re-analysis of the deposited data

Results flagged for a closer look

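The effects below stood out because the salt effect of the same gene differed between sets by limma's test of the difference itself (adjusted p under 0.05). Between the ir29-labelled and the japonica sets, the difference was 2.94 for LOC4326982, 2.74 for LOC4339395, 2.30 for VIT1.2, 1.92 for HAK17, 1.63 for CAT-A, 1.39 for LOC4330873, 0.97 for NEK6, 0.94 for STAR2 and 0.66 for EXPB11. It was -1.02 for BGLU30, -1.14 for CIPK14, -1.36 for LOC9269943, -1.40 for LOC4324944, -1.73 for CLPB1 and -3.17 for the probe set with no gene in the annotation (the unannotated probe set).

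Some of these genes also differed within a label. The second minus the first ir29-labelled set differed by -2.37 for HAK17, -1.89 for CIPK14, -1.33 for CLPB1, -1.0 for NEK6 and -0.85 for EXPB11. Agami minus m103 differed by -4.72 for the unannotated probe set, -2.60 for CIPK14, -1.89 for CLPB1 and -1.76 for LOC4324944. For HAK17 the set that stood apart was the first ir29-labelled set, and for the unannotated probe set and LOC4324944 it was m103.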

How the results depend on the processing

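The difference between the ir29-labelled and japonica sets had 73 calls, 50 to 91 under other scalings, pseudocounts or filters, and 79 with the deposited scale as a block. It had 36 without the intensity trend, 136 with array weights, 218 without the first ir29-labelled set, 428 without the second, 447 without agami, 65 without m103 (28 of them among the 73), 245 for the first ir29-labelled set minus m103 and 1 for the second minus agami. Chosen after seeing the data were 181 calls for the first ir29-labelled set minus m103 on lower-scale arrays, 39 without both japonica control arrays numbered 1 (36 of them among the 73), and 73 without reporter control probe sets. Leaving out 1 array gave 44 to 146. Counts moved by over 1.5 times without m103 control array 1 (44) or 3 (48), m103 salt array 1 (146), 2 (47) or 3 (46), salt array 2 of the first (44) or second (48) ir29-labelled set, or agami salt array 2 (47). Of the named genes, only CIPK14 changed sign, to 0.16 without m103.

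Salt and control arrays of the same number deviated together with r of -0.0503 to 0.204, which does not meet the bar of every pair over 0.1 for treating them as paired, and the labels do not say what a number marks, although some genes differ by number in all groups. With the replicate number as a block, calls were 180 for the difference, 579 for the first ir29-labelled set minus m103, 848 for it minus agami and 0 for the second minus agami.

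Without 1 array, calls ran from 2480 to 3875 for the ir29-labelled mean, 2376 to 3498 for the japonica mean, 97 to 545 for the first set minus m103, 331 to 683 for it minus agami, 420 to 1111 for the second minus m103, 0 to 36 for it minus agami, 539 to 1836 for the second minus the first and 135 to 755 for agami minus m103. Without the trend, the first set minus m103 had 113 calls, it minus agami 306, the second minus m103 419, the second minus the first 625 and agami minus m103 131. With array weights these were 523, 1183 and 1413 for the first 3 comparisons, 1371 for agami minus m103 and 16 for the second set minus agami. Median centring gave 553 for the second set minus m103 and 227 for agami minus m103, and no filter gave 802 for the second minus the first. Without the 2 arrays of highest actin ratio, calls were 1580 for the ir29-labelled mean, 356 for the second set minus m103, 113 for it minus agami and 334 for it minus the first. The second set minus agami had 4 calls with a pseudocount of 1, 2 with the 60th percentile filter and 0 under quantile scaling, median centring, a pseudocount of 64, no filter, no trend or the scale block. Without the 2 arrays of highest actin ratio, 1 salt array is left in the second set. No conclusion is drawn from the counts of that fit. The causes of the shifts in counts were not tested.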

Other observations

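For some genes, the array numbered 1 was the lowest of 3 in all groups, or the highest of 3 in all groups. GI, a clock-associated gene of the photoperiod pathway, had its lowest of 3 values in array 1 in 8 of 8 groups. Under salt, GI had 295, 751 and 1240 in the first ir29-labelled set, 3100, 4480 and 5000 in the second, 1550, 1780 and 2000 in m103 and 1050, 1760 and 1990 in agami. Under control conditions it had 1400, 2200 and 2850 in the first ir29-labelled set, 5170, 6620 and 7580 in the second, 3320, 3940 and 4370 in m103 and 2870, 4770 and 4670 in agami. DTH7, a pseudo-response regulator that delays heading in long days, also had its lowest value in array 1 in 8 of 8 groups, and PRR95 in 7. CCA1, a clock gene of the opposite phase, had its highest value in array 1 in 7 of 8 groups. PRR73 had its lowest value there in 6 groups, but not all such genes followed. For PRR1 array 1 was the lowest in 3 groups and the highest in 3. For Hd1 it was the lowest in 4 and the highest in 2, and for Hd18 the lowest in 3 and the highest in 2. Over the 34355 probe sets tested, array 1 was the lowest in every group for 76 and the highest in every group for 93. The titles give no harvest time, and what the number stands for is not stated in the sources used here.

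Of 10 JAZ genes tested, array 1 was the highest of 3 in 6 or 7 of the 8 groups for 6 (JAZ4, JAZ9, JAZ10, JAZ11, JAZ12 and JAZ13), in 5 groups for JAZ6 and JAZ7, in 4 for JAZ8 and in 3 for JAZ3, for which it was also the lowest in 3. For DREB1B it was the highest in 7 of 8 groups. What these arrays share was not tested.

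The mean salt effect of GI was called in both kinds of set. It was -1.13 in the ir29-labelled sets and -1.24 in the japonica sets, and its difference of 0.11 ± 0.35 had a 95% interval of -0.61 to 0.83. CCA1 had mean salt effects of 0.59 and 0.69 in the ir29-labelled and japonica sets.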
